A study of Homo sapiens with 2 samples.

Results

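EEF1A1 encodes the translation elongation factor eEF1A, and its locus was examined for sites of the RNA polymerase I initiation factor RRN3 in a PAR-CLIP list of peaks. The list holds 7793 peaks, each an interval called by the authors as higher in the immunoprecipitate than in the input. A peak was taken as a member when its midpoint lay in the EEF1A1 gene body of GENCODE release 44, on the strand of the gene. The gene body runs over chr6:73489308-73525587 on the minus strand of GRCh38, 36280 bases in all. By this rule 15 of the 7793 peaks (0.192%) were in EEF1A1. Joining peaks that touch gave 6 sites, of 4524 in the whole list. The gene was chosen by the number and position of its peaks, so these are given as a description with no test.

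The cells were SK-OV-3, an established human ovarian cancer line, carrying a stable lentiviral vector that expresses RRN3 with a V5 tag at its N-terminus. Cells of both libraries were grown with 100 μM 4-thiouridine for 14 h and received 0.2 J/cm2 of 365 nm UV light. The immunoprecipitate was taken with an anti-V5 antibody after RNase A treatment, and the input was a portion of the same kind of cleared lysate. There was 1 library of each kind, so no value below has a replicate check and no error between replicates can be given. A control with another tagged protein, or with no tag, was not analysed here. The list holds no expression levels, so the markers of the cell line and the abundance of EEF1A1 RNA were not examined.

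eEF1A binds aminoacyl-tRNA with GTP and delivers it to the ribosome, and it is among the most abundant proteins of dividing cells. Its mRNA starts with a run of pyrimidines, the 5′ terminal oligopyrimidine tract that it shares with ribosomal protein mRNAs, through which mTOR signalling controls their translation. The gene has a strong promoter with a TATA box and a CpG-rich first intron. The EF1a promoter of many expression vectors is taken from this region, and the vector used for V5-RRN3, pLV-EF1a-MCS-IRES-Bsd, carries such a promoter. Which bases of EEF1A1 it carries is not given in the sources used here. RNA from the vector and RNA from the cell's own gene cannot be told apart in these peaks, because the list gives positions on the human genome alone. RRN3 itself, whose coding sequence the vector also carries, held 0 peaks on either strand. Whether the EEF1A1 peaks came from vector RNA was not tested.

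The sites are shown 5′ to 3′ on the strand of the gene (GRCh38, minus strand), since their position around the start of transcription and their base composition are the main features of the locus. Capitals mark T, which is uridine in RNA and the base that 4-thiouridine replaces, except in site 2, where capitals mark the bases from the first base of the canonical transcript on. Sites 3 and 4 are longer and are shown by the longest peak of site 3 and by the peaks of site 4 with the highest fold enrichments. The peaks left out include the first of site 3 and the first of site 4. These have the highest T shares of the locus, 62.5% and 57.1%, and the latter has its lowest p-value.
Site 1, chr6:73521400-73521428: ggccTccccgTcaccaccccccccaaccc
Site 2, chr6:73521020-73521042: cgtgaacgttCTTTTTCGCAACG
Site 3, peak at chr6:73520859-73520883: gggTTggaagTgggTgggagagTTc
Site 4, peak at chr6:73520622-73520634: TTggggccgcggg
Site 4, peak at chr6:73520606-73520621: cggcgacggggcccgT
Site 5, chr6:73520513-73520535: cTcaagcTggccggccTgcTcTg
Site 6, chr6:73520456-73520474: ggcggcaaggcTggcccgg

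All 15 peaks lay around the start of the gene. Distances are given from the first base of the canonical transcript EEF1A1-201, counted as 0 at chr6:73521032, in the direction of transcription. The peaks ran from -396 to 576, a stretch of 973 bases or 2.68% of the gene body. Within that stretch the 6 sites covered 189 bases (19.4%). Site 1 lay at -396 to -368, upstream of the canonical transcript. Site 2 lay at -10 to 12 and spanned its first base, with 1 peak on each side of it. Site 3 at 128 to 186, site 4 at 391 to 426, site 5 at 497 to 519 and site 6 at 558 to 576 were all in intron 1. From site 1 on, the gaps between neighbouring sites were 357, 115, 204, 70 and 38 bases.

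Against the canonical transcript, which has 8 exons, 3 peaks were upstream of the first base, 1 was in exon 1 and 11 were in intron 1. Exon 1 (chr6:73521000-73521032, 33 bases) is 5′ UTR, and intron 1 (chr6:73520057-73520999) is 943 bases long. Exons 2 to 8 and introns 2 to 7 held 0 peaks. The coding sequence of 1386 bases and the 3′ UTR of 2060 bases, which make up most of the mature mRNA of 3512 bases, thus held none of the 15. The nearest peaks outside the locus on chromosome 6 were 718 kb away at lower coordinates and 72.5 kb away at higher coordinates, so none lay close to the edge of the gene body.

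**Figure D1:**
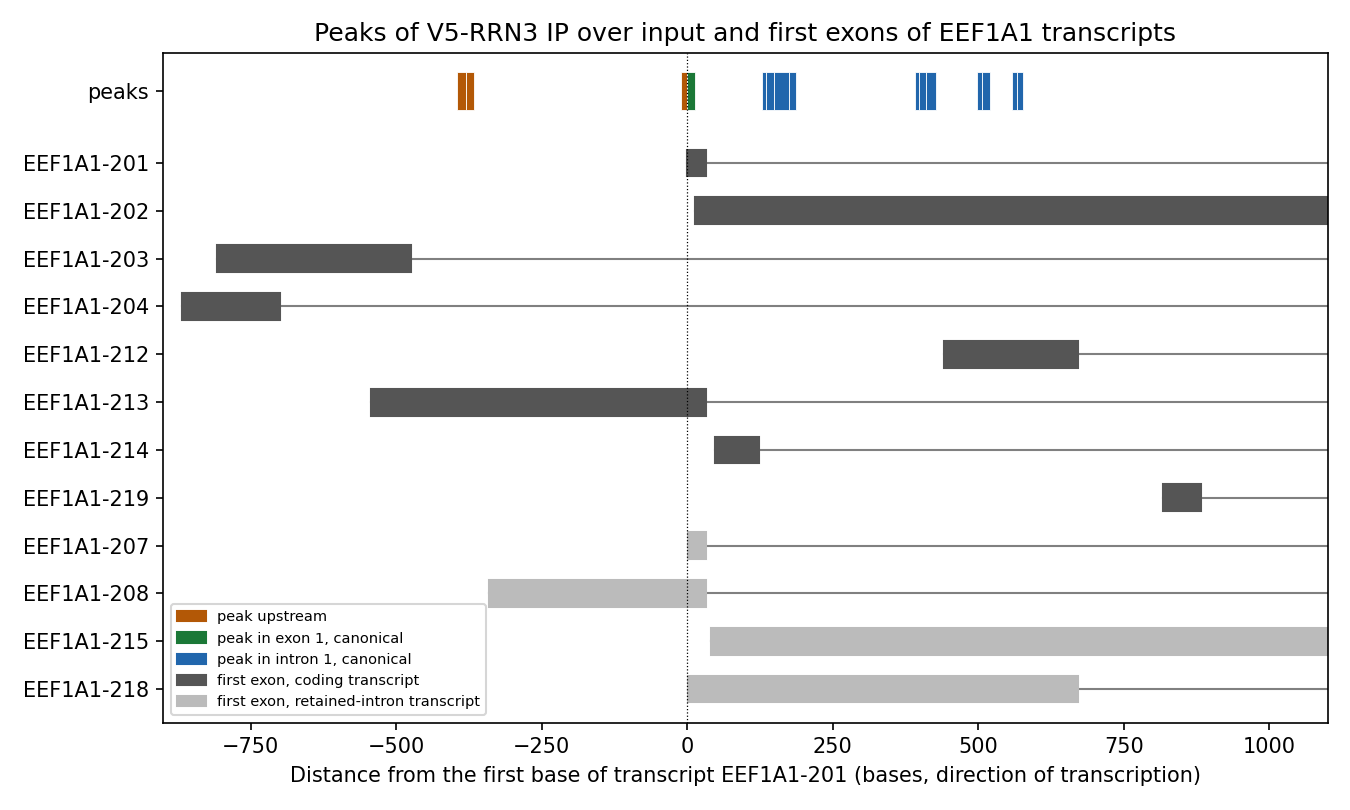
Map of the start of EEF1A1, with distance from the first base of the canonical transcript EEF1A1-201 in bases on the horizontal axis, the peaks in the top row and below them the first exons of the transcripts that start in this stretch (dark bars for coding transcripts, light bars for retained-intron transcripts, thin lines for what follows the first exon; transcripts with the same first exon are drawn once). The 15 peaks form 6 groups between -396 and 576, and the first exon of EEF1A1-202 spans the 4 groups that are in intron 1 of EEF1A1-201.

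The same positions read differently in other annotated transcripts of the gene. GENCODE lists 23 transcripts of EEF1A1, of which 14 are coding and 9 are non-coding, and 8 of the non-coding ones are retained-intron transcripts. Each of the 15 peaks lay in an exon of at least 1 coding transcript, and 13 lay in an exon of at least 1 non-coding transcript. EEF1A1-202, a coding transcript that keeps the first intron, has a first exon at chr6:73519883-73521018 that held 11 peaks, all of them as 5′ UTR. EEF1A1-213, whose first exon starts 543 bases upstream (chr6:73521000-73521575), held the other 4 peaks as 5′ UTR. The retained-intron transcript EEF1A1-218 held 12 peaks in exons and EEF1A1-215 held 11. The coding transcripts EEF1A1-203, EEF1A1-204, EEF1A1-206, EEF1A1-216 and EEF1A1-221 start farther upstream, and all 15 peaks were in their introns. Peak positions alone do not say which of these RNAs was crosslinked, and this was not tested.

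No small RNA gene of either strand overlaps the EEF1A1 gene body, so 0 of the 15 peaks were in one. Of the 2 other genes that overlap the gene body, MTO1, which encodes a mitochondrial tRNA-modifying enzyme, and the antisense gene EEF1A1-AS1 are both on the opposite strand, and neither reaches the stretch with the peaks. The opposite strand of the gene body held 0 peaks.

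The deposited p-values differed along the locus by site, while fold enrichments also varied within sites. A fold enrichment is the authors' ratio of immunoprecipitate to input, and the p-value is theirs too; what test and scaling they used is not given in the sources used here. Site 1 had fold enrichments of 2.90 and 3.69 with p-values of 2.43e-38 and 1.02e-38, the highest p-values of the locus. Site 2 had 3.52 upstream of the first base and 2.55 in exon 1, with p-values of 3.23e-43 and 6.25e-42. The peaks at the start of transcription were thus close in strength to those upstream of it.

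The lowest p-values were inside intron 1. Site 3 comprised 4 peaks with fold enrichments of 3.50, 2.78, 2.67 and 3.68 and p-values of 2.56e-72, 4.38e-69, 9.47e-63 and 4.38e-69. Site 4 comprised 3 peaks with fold enrichments of 2.51, 3.42 and 3.99 and p-values of 2.17e-116, 1.02e-110 and 3.41e-108. Site 4 therefore held the 3 lowest p-values of the gene, and its last peak had the highest fold enrichment, ranked 46 of all peaks. No peak of the list has a fold enrichment above 4.00, so this rank is nearness to that upper end. Why the list ends there is not given in the sources used here. Farther into the intron, site 5 had fold enrichments of 2.05 and 2.25 (p-values 3.81e-52 and 1.17e-50), and site 6 had 2.56 and 2.57 (p-values 1.26e-48 and 3.67e-47). These last 4 peaks had p-values between those of site 2 and site 3.

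**Figure D2:**
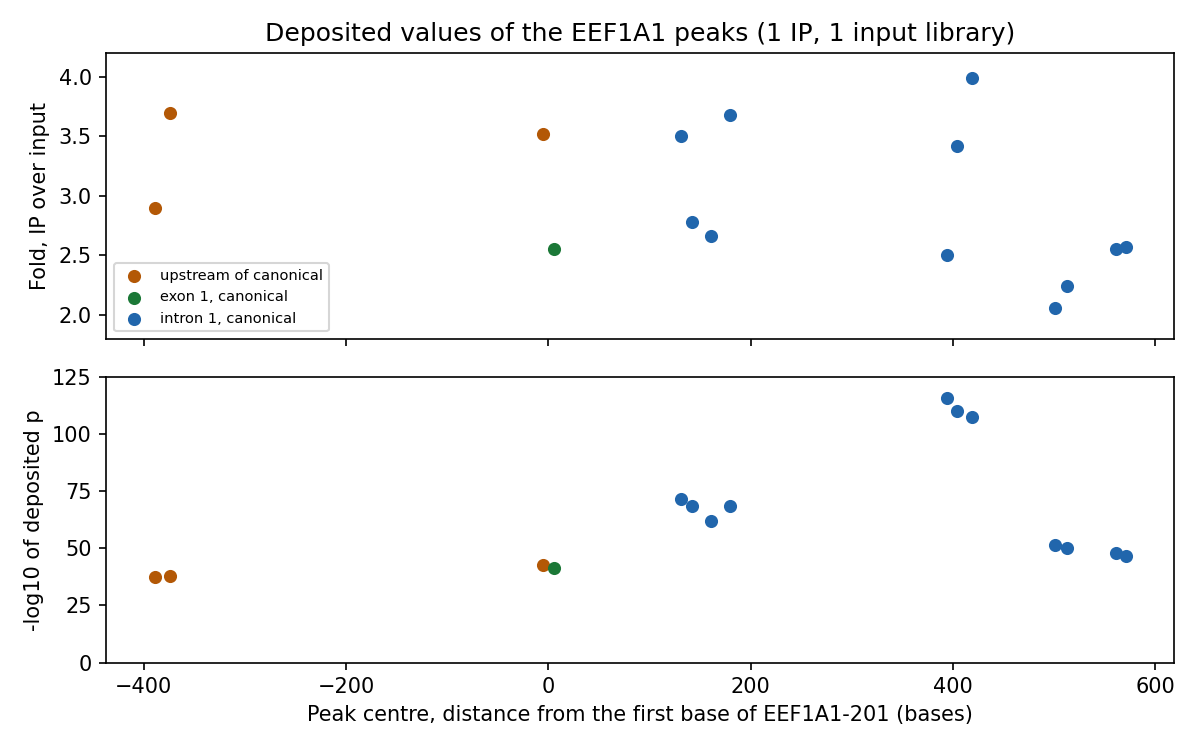
Deposited fold enrichment of the immunoprecipitate over input (upper panel) and -log10 of the deposited p-value (lower panel) for each of the 15 peaks, plotted at the peak centre in bases from the first base of EEF1A1-201. Fold enrichments spread between 2.05 and 3.99 along the whole stretch. The p-value ranges of the 6 sites do not overlap, and the 3 peaks of site 4 are at the top.

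The p-value ranges of the 6 sites did not overlap. The nearest were those of sites 5 and 6, at -log10 p-values of 49.9 and 47.9. On the log10 scale the p-values ranged by 0.377 to 9.57 within an EEF1A1 site. Across the locus they ranged by 78.0, which no single site can exceed. Neighbouring peaks of 1 site are adjoining stretches of the same RNA region and are not independent. Over the 2726 sites of the list with at least 2 peaks and p-values above 0, the median range within a site was 0.0363. This was below the range of every EEF1A1 site, though more peaks can widen a range and numbers of peaks were not matched. Over the same 2726 sites the median ratio of the highest to the lowest fold enrichment was 1.23.

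Set against the whole list, the EEF1A1 peaks lay near the middle in strength. Their median fold enrichment was 2.78, beside 3.00 for all peaks, which run from 2.00 to 4.00. Their median p-value was 3.81e-52, beside 2.21e-47 for all peaks, and 10 of the 15 were below that list median. The best of them ranked 1334 by p-value and the weakest 4605. The list gives a p-value of 0 for 580 peaks, of which 0 were in EEF1A1. The false discovery rate and the score were 1 for every peak of the list, these 15 included, so neither separates one peak from another.

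The peaks were 7 to 25 bases long with a median of 13, beside a list median of 10. Site 3, at 59 bases, was among the longer sites: 45 of the 4524 sites were at least that long, and the median site was 17 bases. Sites 3 and 4 had 4 and 3 peaks. Of all sites, 63 (1.39%) had 4 or more peaks and 2936 (64.9%) had at least 2, as all 6 of EEF1A1 did.

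The sites were richer in G and C than the sites of the whole list, and 4 of the 6 had a lower share of T. Joined together they were 67.7% G and C and 21.2% T. The 784 bases between the sites were 61.0% G and C and 21.7% T, so the T share of the sites was close to that of their surroundings. The canonical mRNA was 42.5% G and C and 28.8% T, and all sites of the list were 47.6% and 27.6%. The dinucleotide CpG occurred in the sites at 0.906 of the frequency given by their C and G content, close to the 0.913 between the sites and 0.905 in the whole of intron 1, and far from the 0.288 of the mature mRNA. In all sites of the list the same ratio was 0.815.

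Sites differed among themselves in this respect. Site 6 had 1 T in 19 bases (5.26%) and was 84.2% G and C, and site 1 had 2 T in 29 bases (6.90%) and was 79.3% G and C. Site 2, at the first base, had 8 T in 23 bases (34.8%) and was 47.8% G and C, the lowest G and C share of the 6. Site 3 had a T share of 28.8%, site 5 of 21.7% and site 4 of 19.4%. Site 4, with the lowest p-values, was 77.8% G and C.

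4-thiouridine crosslinks from positions where it stands in for uridine. Of the 15 peaks, 2 contained no T: the second peak of site 1, accccccccaaccc, and the first of site 6, ggcggcaa. Another 2 peaks contained 1 T each. In the whole list 618 peaks (7.93%) contained no T. The 95% Wilson interval of 7.35 to 8.55% covers the number of peaks only and treats adjoining peaks as independent, which they are not. By site, 94 of all 4524 contained no T, and every EEF1A1 site had at least 1. Both EEF1A1 peaks without T adjoin a peak that has at least 1 T within the same site. Sequencing reads extend past a peak, and the bases at which they carried T-to-C changes were not analysed here.

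EEF1A1 has many processed pseudogenes, copies of its mRNA without introns, and a close paralog, EEF1A2. EEF1A2 held 0 peaks, and its expression in these cells was not examined. GENCODE names 49 EEF1A1 pseudogenes, 36 of them on chromosomes where the list has peaks, and 0 held a peak on either strand. The 20 bases around the midpoint of each EEF1A1 peak occurred once in the genome for 15 of 15 peaks, and so did the 30 and the 40 bases around it. With up to 1 mismatch in 20 bases, 12 of 15 still occurred once, and the other 3 peaks, the second of site 1, the third of site 3 and the first of site 6, had 4, 2 and 2 matches. No pseudogene thus held an exact copy of these stretches, which for copies of the canonical mRNA was largely fixed in advance. Such a copy lacks intron 1, with 11 of the peaks, and the bases upstream of the first base, with 3. An expression vector is not part of the genome searched.

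The first base of EEF1A1 lay inside site 2, and the capitals of that site begin with CTTTTTC. This heptamer, searched on both strands, was in 1 of the 6 EEF1A1 sites and in 15 of all 4524 sites (0.332%). It was in 6.46% of 35116 RefSeq promoter windows (GRCh38.p14) that run from 250 bases before to 50 after a gene's start. The EEF1A1 window (chr6:73520983-73521282) has the same first base, is identical to the genome sequence used here and held the 2 peaks of site 2. It contains CTTTTTC 2 times, starting at -57 and at 0, and the TATA box TATATAA starting at -30. Of 30362 such windows on chromosomes with peaks, 81 (0.267%) held at least 1 peak.

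Binding motifs were searched for the 3 RNA-binding proteins that the study related to RRN3, in the letters given here, on both strands. GCTGGCC, a form of the motif of the translational repressor SAMD4A, was in sites 5 and 6, in the direction of transcription. It was in 16 of all 4524 sites (0.354%) and in 9.71% of promoter windows. The other form, GCTGGAC, was in 0 of the 6 sites, in 4 of all sites (0.0884%) and in 5.09% of promoter windows. AGAAAAA, the motif of the poly(A)-binding protein PABPC1, and AAAAAAA, that of its relative PABPC4, were in 0 of the 6 sites. AGAAAAA was in 0.663% of all sites and 10.1% of promoter windows, and AAAAAAA in 0.862% and 9.40%. AGAAAAA and AAAAAAA can share bases with each other, and AGAAAAA with the reverse strand of CTTTTTC. A promoter window is longer than a site, so these shares are not rates per base, and a match describes letters and no bound protein.

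Of 16702 protein-coding genes on chromosomes with peaks, 2661 held at least 1 peak in the gene body (15.9%). The list used here has no peak on chromosomes 7, 8, 9, X and Y, whose genes are left out of these counts and ranks. With 15 peaks, EEF1A1 ranked 3 by number of peaks, equal with RBFOX1, a neuronal splicing factor gene of 2474 kb. Above it were POLQ, the gene of DNA polymerase theta, with 151 peaks, and SUMO3, which encodes a ubiquitin-like modifier, with 23. Below it were RGS6, a regulator of G-protein signalling, with 14 peaks, and FAM172A, LPP, RPL17 and RPL17-C18orf32 with 13 each. All peaks of POLQ and SUMO3 were in coding sequence and all 13 of RPL17 were in the small nucleolar RNA genes SNORD58A and SNORD58C in its introns, which the overlapping RPL17-C18orf32 shares. The peaks of RBFOX1 were in introns or outside its canonical transcript, and those of RGS6 were in introns. By sites EEF1A1 ranked 8, and by peaks per kb of gene body (0.413) it ranked 61.

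More peaks lay near the start in EEF1A1 than in any other protein-coding gene counted here. A window from 500 bases before to 1000 bases after the first base of the canonical transcript held at least 1 peak in 282 of 16702 genes (1.69%). In EEF1A1 it held all 15, in 6 sites, the highest number of peaks in any of these genes. POLQ followed with 11, all in coding sequence, then RPL17-C18orf32 with 9, all in small nucleolar RNA genes, and RPS19, a small-subunit ribosomal protein gene, with 7, of which 5 were in coding sequence and 2 in the 5′ UTR. RPL3, a large-subunit ribosomal protein gene, had 6, all in small nucleolar RNA genes. Among the 640 protein-coding genes with at least 3 peaks, 17 (2.66%) had every peak inside the window, EEF1A1 among them. The windows of neighbouring or overlapping genes share peaks, and EEF1A1 was chosen for its peaks, so these counts are descriptions. The width of the window was not varied, and no rank by sites in the window is given here. In the shorter RefSeq promoter window, from 250 bases before to 50 after the start, EEF1A1 held 2 of its 15 peaks.

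Among genes with several peaks near the start, EEF1A1 had the most in introns outside small RNA genes. At least 3 window peaks were found in 24 genes, of which 11 had all of them in small RNA genes and 12 had none there. Of those 12, peaks in introns were found in EEF1A1 with 11, MUSTN1 with 3 and SHANK3 with 1, and peaks upstream of the first base in EEF1A1 with 3 and SHANK3 with 2. MUSTN1 and SHANK3 were named after their values were seen. In intron 1 alone, outside small RNA genes, 635 protein-coding genes held a peak, and none had as many as EEF1A1. Its 11 peaks, which formed 4 sites, were 11.7 per kb of intron over 943 bases. Of the 76 genes with at least 3 such peaks, the next by this measure was MUSTN1 with 2.52 per kb, together with a gene that overlaps it. The median length of intron 1 in genes with a peak there was 34.2 kb.

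A site that spans the first base of the canonical transcript was found in 8 of 16702 protein-coding genes (0.0479%). Beside EEF1A1 these included CRISP1, MAP3K14, MRPS12, RPS19 and RUVBL1, named after their values were seen. RPS19 and MRPS12 encode ribosomal proteins of the cytoplasm and of mitochondria. The lowest p-value of such a site was 3.23e-43 in EEF1A1 and 1.81e-69 in RPS19, and in MRPS12 it was 2.33e-108. Site 2 of EEF1A1 was thus not the strongest of them.

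Of 31 genes of translation elongation on chromosomes with peaks, 3 held a peak (9.68%), beside 15.9% of protein-coding genes. The shares are not matched for gene length. Median length was 29.2 kb in this list and 96.1 kb in protein-coding genes with a peak. EEF1A1, which was chosen for its peaks, is 1 of the 3 elongation genes with a peak, and the others are EEFSEC and EEF2K. EEFSEC, the elongation factor that delivers selenocysteine-tRNA, had 8 peaks, all in its introns 1 and 4, with the lowest p-value at 3.08e-52. EEF2K, the kinase that inhibits the translocation factor eEF2, had 2 peaks, both in coding sequence, with the lowest p-value at 8.24e-46. Neither had a peak in its start window, where EEF1A1 had all of its own. EEF1A2, the other eEF1A gene, and the remaining genes of the list held 0 peaks, and the median was 0 peaks per gene.

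Ribosomal protein genes, whose mRNAs share the pyrimidine start of EEF1A1, held peaks in 16 of 67 genes (23.9%), beside 15.9% of protein-coding genes. Here too gene length was not matched, with a median of 5.55 kb in this list and 96.1 kb in protein-coding genes with a peak. In 8 of the 16 every peak was in a small RNA gene. Their 74 peaks were mostly in small RNA genes, 48 of them, with 12 in coding sequence, 10 in 5′ UTRs and 4 in introns. Genes with the most peaks included RPL17 with 13, RPL13A with 9, RPL3 with 8 and RPS19 with 7. RPS19 had no peak in a small RNA gene and all 7 peaks in the start window, of which 5 were in coding sequence and 2 in the 5′ UTR. RPLP0 and RPS18 with 4 peaks each and RPL19 with 3 also had every peak in the start window. None of these was in a small RNA gene, and the genes were named after their values were seen. They are 4.54, 4.44 and 4.56 kb long, beside 36.3 kb for EEF1A1. Their lowest deposited p-values were 7.69e-11, 1.30e-09 and 1.98e-02, beside 2.17e-116 in EEF1A1. RPL24 and RPS24, named in the same way, had 1 peak each, in the start window and in an intron. The RPL24 peak was in intron 2, with a deposited p-value of 1.01e-230. The RPS24 peak was in intron 1, with a deposited p-value of 3.71e-03. In EEF1A1, 11 of the 15 peaks were in intron 1.

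Genes of other abundant mRNAs held peaks in 5 of 30 cases (16.7%), beside 15.9% of protein-coding genes. These shares are not matched for gene length either, with a median of 7.77 kb in this list. HSPA8, a heat shock protein gene, had 8 peaks, of which 7 were in SNORD14C and SNORD14D. VIM, which encodes vimentin, had 4, RACK1, a ribosome-associated scaffold gene, had 3, all in SNORD95, and the glycolytic enzyme genes ALDOA and PKM had 1 each. Of their 17 peaks in all, 10 were in small RNA genes, where EEF1A1 had 0 of 15.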

How the data were processed

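PAR-CLIP was compared between 1 anti-V5 immunoprecipitate and 1 input library. The authors ligated adapters with molecular identifiers, sequenced the libraries and deposited 1 list of peaks. The submitters' processing notes name GRCh38, and the aligner, peak caller, test and threshold are not given in the sources used here. The fold enrichment is the authors' ratio of immunoprecipitate to input, as deposited, and its scaling is not given there either. The authors also deposited a p-value per peak, and a false discovery rate and a score that are both 1 throughout. Positions and strands were taken as deposited. Reads behind single peaks are not given in the list, so their depth is unknown.

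The intervals are half-open, and positions are printed 1-based. Peaks were placed by midpoint on GENCODE release 44, and peaks of the same strand that touch or overlap were joined into sites. Sequences come from GRCh38, and promoter windows from RefSeq (GRCh38.p14). The gene and the gene lists were chosen with earlier results of these data known. With 1 library per condition, no test was made. Named by rule were EEF1A1, EEF1A2, EEF1A1 pseudogenes with a peak, RRN3, elongation genes with a peak, the 5 ribosomal and 5 abundant genes with the most peaks, and the 5 protein-coding genes ranked next above and below EEF1A1, of which there were 3 above or equal; other genes were named after their values were seen. Some genes that these rules or counts would name are not reported here. Alternatives covered peak strength, midpoint or overlap, strand, joining, transcripts, length, uniqueness and flanks. Placement was tested on simulated data, with peaks put into a sample of genes on the chromosome of EEF1A1. There 594 of 594 peaks were placed as built, and counts were compared over 1051 genes. Sites were simulated separately, at regular spacing, and 100 of 100 were recovered. Tables were handled with pandas 2.3.3 and numpy 2.4.6 in Python 3.11.15, intervals computed with scipy 1.17.1 and figures drawn with matplotlib 3.10.9.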

Additional observations from a re-analysis of the deposited data

How the results depend on the processing

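Of 55 values computed under alternatives for 13 results, 32 stayed within 1.5 times or within the counting interval and 23 moved. In the 779 peaks with the lowest p-values, about 10% of the list, EEF1A1 held 0 peaks, hence 0 in exons, 0 in introns and 0 per kb. Its rank of 211 was shared with every other protein-coding gene without a peak among these. Of the gene lists, 0 elongation, 1 ribosomal protein and 0 abundant genes held a peak. In the 3896 with the lowest p-values, 10 EEF1A1 peaks stayed, 0 were in exons, its rank was 5, and 6 ribosomal protein genes and 1 abundant gene held a peak. Both follow from the p-values of the EEF1A1 peaks, which rank between 1334 and 4605. With touching peaks joined, the count was 6, with 4 in introns, 0.165 per kb and rank 8, and joining within 1 kb left 1 site. With exons of all transcripts, or of all protein-coding transcripts, 15 peaks were exonic and 0 intronic. Over the span of the canonical transcript there were 2.27 peaks per kb, and ranked per kb EEF1A1 was 61. Counting overlap or either strand left 15 peaks. No paired analysis was possible because each condition had 1 library.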
